A study of Mus musculus with 8 samples.

Results

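The AP-1 transcription factor genes were examined in mouse liver, taking 10 genes of the Fos and Jun families and their close relatives (Fos, Fosb, Fosl1, Fosl2, Jun, Junb, Jund, Atf3, Maff and Batf). A gene was represented by the transcript cluster (a set of probes read out as 1 value) whose annotation gives that 1 symbol, and by the brightest such cluster where there were several. By this rule 9 of the 10 genes were measured, out of 22180 genes with a cluster of their own on the array. Fosl1 is not analysed here because the cluster that carries its name also carries that of another gene. The livers came from male mice on the C57BL/6J background, 3 of them wild type (WT) and 5 with a knockout (KO) of Abhd15, a gene for an alpha/beta hydrolase domain protein studied mainly in fat cells. All mice ate normal chow. According to the design text they were 14 weeks old, were fasted overnight and were given chow again for 1 hour before harvest, whereas the labels of the samples name 14 weeks as the longest time on that diet. The sources used here do not say how the knockout was made or whether animals shared a litter or cage. RNA of each liver was run on an Affymetrix Mouse Gene 2.0 ST array of its own, and values are on the log2 scale, so that 1 unit is a doubling.

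AP-1 is a dimer of basic leucine zipper proteins that binds short palindromic DNA elements. Jun proteins can pair with each other, whereas Fos proteins need a Jun partner to bind DNA. Several of these genes are immediate early genes, whose transcripts appear within minutes of a stimulus such as a growth factor, a cytokine or cell stress, without new protein synthesis, and then decay fast. In liver they are known for their induction after partial hepatectomy and injury.

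The stretches upstream of Fos, Jun, Junb and Atf3 are shown because these are the genes on which the results below turn most, and because control elements of early genes are often found close to the start of transcription. Each is the 250 bases before the start of transcription, 5′ to 3′ on the gene's strand, from RefSeq's GRCm38.p6 promoter table, where 9 of the 10 genes were found. Capitals mark matches to any of the motifs searched on both strands.
Fos: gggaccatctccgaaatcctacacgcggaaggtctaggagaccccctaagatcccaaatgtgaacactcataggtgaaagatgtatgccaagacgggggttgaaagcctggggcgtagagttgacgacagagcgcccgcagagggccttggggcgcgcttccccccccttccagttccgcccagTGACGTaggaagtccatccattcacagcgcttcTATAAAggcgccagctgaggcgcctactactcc
Jun: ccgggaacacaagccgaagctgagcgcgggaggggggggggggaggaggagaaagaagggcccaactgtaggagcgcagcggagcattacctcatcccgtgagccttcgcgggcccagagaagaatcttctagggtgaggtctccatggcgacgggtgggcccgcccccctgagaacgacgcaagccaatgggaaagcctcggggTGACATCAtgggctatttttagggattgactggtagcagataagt
Junb: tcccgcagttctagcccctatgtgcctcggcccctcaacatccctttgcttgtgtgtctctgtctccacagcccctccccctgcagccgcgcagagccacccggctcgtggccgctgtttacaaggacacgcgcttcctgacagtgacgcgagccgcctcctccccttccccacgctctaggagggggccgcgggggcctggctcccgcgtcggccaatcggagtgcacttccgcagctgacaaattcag
Atf3: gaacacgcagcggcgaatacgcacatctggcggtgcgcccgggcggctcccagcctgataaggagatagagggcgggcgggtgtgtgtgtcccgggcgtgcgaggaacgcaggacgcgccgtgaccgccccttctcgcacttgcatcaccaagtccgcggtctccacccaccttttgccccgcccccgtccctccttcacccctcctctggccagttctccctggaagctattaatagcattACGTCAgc
They lie at chr12:85473640-85473889 on the plus strand, chr4:95052223-95052472 on the minus strand, chr8:84978749-84978998 on the minus strand and chr1:191183334-191183583 on the minus strand. The motifs were the cAMP response element (CRE) TGACGTCA, its 6-base core TGACGT, the classical AP-1 element TGANTCA, its 8-base form TGANNTCA (which includes the CRE), the CArG box bound by serum response factor, and the TATA box TATAAA. Fos held the core TGACGT from 66 to 61 bases before its start and a TATA box from 33 to 28 bases before it. Atf3 held the core, read on the other strand, from 8 to 3 bases before its start. Jun held the 8-base AP-1 form as TGACATCA from 45 to 38 bases before its start, and no motif of the set was found in the window of Junb. The core was found in 4 of the 9 genes of the table and in 6.47% of all 32851 promoter windows of this length, the 8-base form in 3 genes and 11.9% of windows, and the full CRE in Maff alone among these genes (before the second of its 3 listed starts) and in 1.55% of windows. The 7-base AP-1 element, found in 6.75% of windows, and the CArG box, found in 1.47%, matched in 0 of the 9 genes. These matches describe letters in a short window and say nothing on binding. Elements farther upstream were not searched, so a count of 0 holds for this window only.

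Abhd15 itself, in the brighter of its 2 clusters, was lower in every KO array than in every WT array, with WT arrays at 5.64 ± 0.176 (SD, n = 3) and KO arrays at 5.12 ± 0.0775 (SD, n = 5). Its dimmer cluster overlapped between the groups, from 3.07 to 4.36 in WT and from 2.55 to 3.84 in KO, with a log2 difference of -0.68 (SE 0.323, limma adjusted p = 0.838). No source used here places its probes inside or outside the deletion, so only the direction checks the labels. KO arrays 1 and 2 stood apart over all 41345 clusters, with scores of 55.2 and 50.8 on the first principal component (18.0% of the variance) against 0.22 for the next array. KO arrays 4 and 5 scored lowest, at -35.6 and -25.6, and the WT arrays lay from -20.8 to -8.04. Results of the measured AP-1 genes are therefore given for all 8 arrays and again without KO arrays 1 and 2, with each array on its own. For other genes these values are given only in part. The array medians were 2.99 to 3.05, and genes at or near that level are not shown to be above background. Levels of different genes depend on their probes and were not compared with each other.

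The family as a whole read higher in the KO livers, but unevenly from liver to liver. All 9 measured genes had a higher KO mean, where 49.2% of all genes did, and the median of their log2 differences (KO minus WT) was 0.79, against 0.00 over all 22180 genes. None of the 9 passed limma at an adjusted p of 0.05 (0.0% of the 23521 single-symbol clusters did), and 3 had an unadjusted p under 0.05 with a higher KO mean, which 2.75% of clusters had. No member had an unadjusted p under 0.05 with a lower KO mean, which 3.32% of clusters had. The 3 were Jun, Jund and Atf3. Leaving out KO arrays 1 and 2 brought the median to 0.19, against -0.01 over all genes. These were the 2 highest arrays in all 9 members, so leaving them out could only lower each difference. The genes were chosen with earlier results of these arrays known, so these counts describe the family and do not test it.

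**Figure D1:**
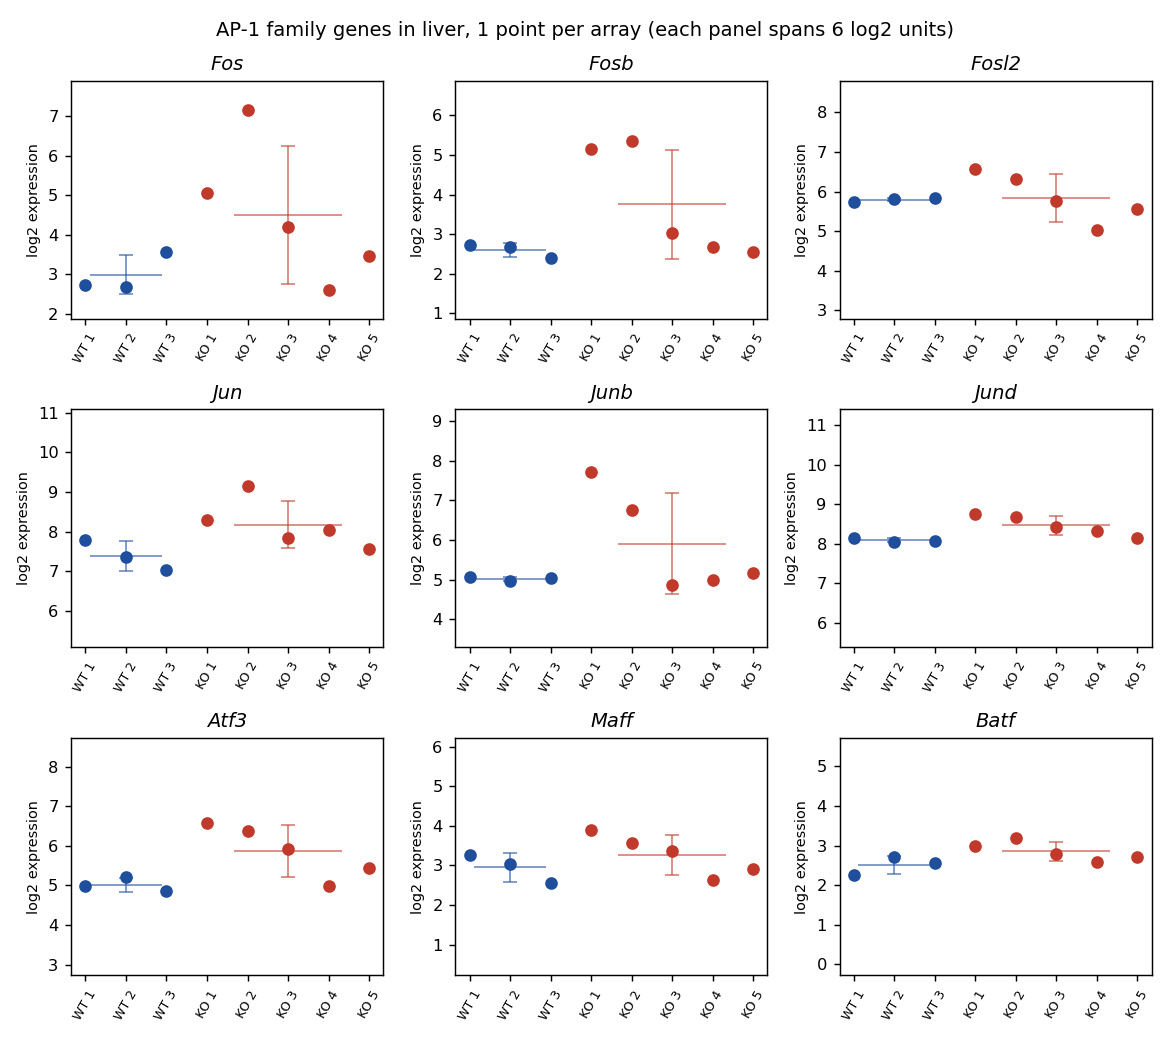
The log2 expression of the 9 measured AP-1 genes in each of 3 WT (blue) and 5 KO (red) arrays, 1 point per array, with the group mean (line) and SD (bar). In every panel KO arrays 1 and 2 are the highest points, while KO arrays 4 and 5 lie near the WT arrays in most.

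Fos encodes the founding member of the Fos family. Its WT arrays read 2.72, 2.69 and 3.57, and its KO arrays 5.05, 7.16, 4.20, 2.62 and 3.47. KO arrays 1, 2 and 3 lay above every WT array, KO array 4 lay below all of them and KO array 5 fell within their range. The log2 difference was 1.51 (SE 0.806), with a limma adjusted p of 0.843 and a two-sided exact permutation p of 0.268 over the 56 splits of 8 arrays into 3 and 5. Fos had the widest spread of the family, from 2.62 to 7.16 in KO (SD 1.74, n = 5), and only 0.0361% of all genes had a KO SD as large. Because its WT arrays sat near the array median, no fold is given. Without KO arrays 1 and 2 the difference was 0.44 (SE 0.391, limma adjusted p = 0.904).

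Fosb, a Fos relative that also gives a truncated, long-lived form in brain, stood out in the same livers. It read 2.73, 2.69 and 2.40 in WT, and 5.14, 5.35, 3.03, 2.69 and 2.55 in KO. KO arrays 1 and 2 stood well above the rest, KO array 3 stood slightly above the WT arrays, and KO arrays 4 and 5 fell among them. The log2 difference of 1.15 (SE 0.632) had a limma adjusted p of 0.849 and an exact permutation p of 0.196, and it was 0.15 without KO arrays 1 and 2 (SE 0.181, limma adjusted p = 0.928). As with Fos, the WT level was near the array median.

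Fosl2, which encodes the Fos-related antigen Fra-2, read above WT in 2 KO livers and below WT in another 2. The WT arrays lay close together at 5.74, 5.82 and 5.82, and the KO arrays read 6.56, 6.31, 5.77, 5.03 and 5.55. KO arrays 1 and 2 were above every WT array and KO arrays 4 and 5 below every WT array. These opposite deviations left a log2 difference of 0.05 (SE 0.296, limma adjusted p = 0.989, exact permutation p = 0.946). Its sign depended on the arrays used, at -0.35 without KO arrays 1 and 2 (SE 0.203), -0.13 without KO array 1 and -0.07 without KO array 2.

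Jun, the founding Jun gene, read above WT in most KO livers. It read 7.79, 7.35 and 7.03 in WT, and 8.30, 9.14, 7.84, 8.03 and 7.57 in KO. Of the 5 KO arrays, 4 lay above every WT array, and KO array 5 lay within the WT range. The log2 difference was 0.79 (SE 0.317), or 1.73-fold, with an unadjusted limma p of 0.0311, an adjusted p of 0.795 and an exact permutation p of 0.0893. Without KO arrays 1 and 2 it was 0.43 (SE 0.221), with an exact permutation p of 0.2 where 0.1 is the smallest that 3 against 3 arrays can give.

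Junb, a Jun family gene with weaker transactivation than Jun and a typical early gene, showed a sharp contrast between livers of the same genotype. Its WT arrays read 5.05, 4.96 and 5.04, and its KO arrays 7.73, 6.76, 4.87, 4.98 and 5.18. KO array 1 was 6.57-fold and KO array 2 was 3.36-fold above the WT mean, while KO array 3 lay slightly below the WT arrays, KO array 4 among them and KO array 5 slightly above. The log2 difference of 0.89 (SE 0.587, limma adjusted p = 0.873, exact permutation p = 0.304) became -0.01 (SE 0.15) without KO arrays 1 and 2. The spread in WT was small (SD 0.0518, n = 3), whereas the KO SD of 1.28 (n = 5) was reached by 0.126% of all genes.

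Jund, the Jun family gene that is usually expressed at steady levels, was the member whose groups did not overlap. It read 8.15, 8.04 and 8.08 in WT, and 8.75, 8.68, 8.43, 8.33 and 8.16 in KO. Each of the 5 KO arrays was above each WT array, although KO array 5 exceeded the highest WT array only slightly. This held for 1 of 9 members and for 1.96% of all genes, while the reverse order, KO below WT, held for 0 members and 2.48% of genes. The log2 difference was 0.38 (SE 0.157), or 1.3-fold, with an unadjusted limma p of 0.0346, an adjusted p of 0.803 and an exact permutation p of 0.0536, where 0.0179 is the smallest the design allows. Without KO arrays 1 and 2 it was 0.22 (SE 0.148, exact permutation p = 0.1, the smallest possible there). A dimmer Jund cluster, not used by the rule, had a similar log2 difference of 0.37 (SE 0.245, limma adjusted p = 0.873), but its arrays overlapped, from 5.12 to 6.03 in WT and from 5.41 to 6.28 in KO.

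Atf3 encodes a stress-induced factor of the ATF family that pairs with Jun proteins. Its WT arrays read 4.98, 5.21 and 4.86, and its KO arrays 6.59, 6.37, 5.93, 4.99 and 5.45. KO array 4 sat within the WT range and the other 4 KO arrays lay above it. The log2 difference was 0.85 (SE 0.32), or 1.8-fold, with the smallest unadjusted limma p of the family, 0.0233 (adjusted p = 0.795, exact permutation p = 0.0714). Without KO arrays 1 and 2 it was 0.44 (SE 0.238, limma adjusted p = 0.845).

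Maff and Batf, which both lack a transactivation domain of the usual kind, were dim. Maff, a small Maf protein gene, read 3.27, 3.04 and 2.56 in WT, and 3.89, 3.56, 3.37, 2.62 and 2.92 in KO. KO arrays 1, 2 and 3 were above every WT array and the other two were inside the WT range, for a log2 difference of 0.31 (SE 0.278, limma adjusted p = 0.894), or 0.01 without KO arrays 1 and 2. Batf, a partner of Jun proteins known from lymphocytes and dendritic cells, read 2.25, 2.71 and 2.56 in WT, and 2.98, 3.19, 2.79, 2.60 and 2.71 in KO. Its log2 difference was 0.34 (SE 0.17, limma adjusted p = 0.838), or 0.19 without KO arrays 1 and 2, and its mean of 2.72 over all arrays lies below the array medians, so that a signal above background is not shown.

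**Figure D2:**
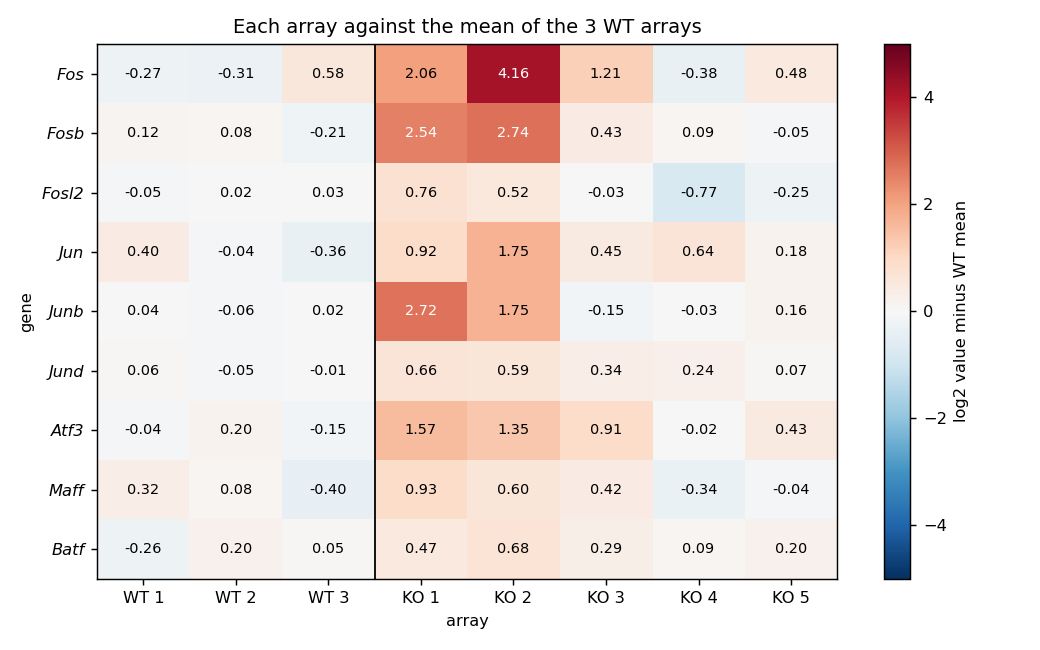
The log2 value of each AP-1 gene (rows) on each array (columns) minus the mean of the 3 WT arrays, with the number in the cell and the colour from blue (lower) to red (higher). Fos reached 4.16 in KO array 2 and Junb 2.72 in KO array 1, and Fosl2 was lowest in KO array 4 at -0.77.

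Set beside the WT arrays, the 5 KO livers differed among themselves. Both KO arrays 1 and 2 lay above every WT array in 9 of 9 members, where this was so in 12.7% of all genes. KO arrays 1 and 2 were also the highest pair of all 8 arrays in the 9 members, which was so in 5.48% of all genes. KO array 1 lay above every WT array in 9 members (26.7% of genes), KO array 2 in 9 (26.2%), KO array 3 in 7 (26.3%), KO array 4 in 2 (24.1%) and KO array 5 in 3 (26.7%). An excess of at least 1 log2 unit over the highest WT array was seen in 4 members in KO array 1 (0.573% of genes), in 5 in KO array 2 (0.433%) and in 0 in KO arrays 3, 4 and 5 (0.185%, 0.284% and 0.176%). The median log2 excess of the 9 members over their WT means was 0.93 in KO array 1, 1.35 in KO array 2, 0.42 in KO array 3, -0.02 in KO array 4 and 0.16 in KO array 5. For KO arrays 4 and 5 the members' shares above WT were near those of all genes. KO array 4 was not uniformly low, since Jun was 0.64 above its WT mean there while the deviation of Fosl2 was -0.77.

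**Figure D3:**
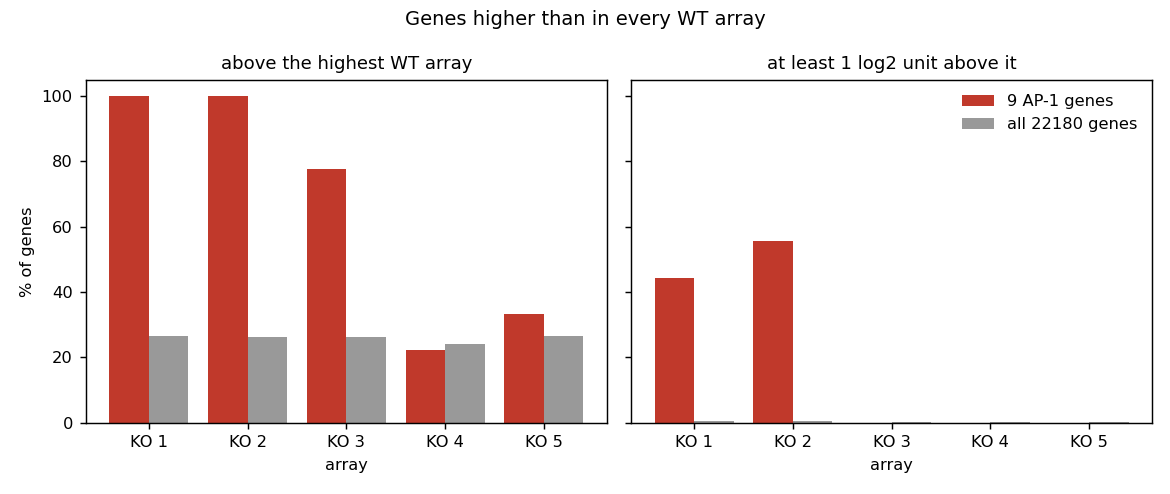
The percentage of the 9 AP-1 genes (red bars) and of all 22180 genes (grey bars) that lay above the highest WT array in each KO array (left), and at least 1 log2 unit above it (right). In KO arrays 1 and 2 all 9 members exceeded WT, against 26.7% and 26.2% of genes, while KO array 4 had 2 members above WT against 24.1% of genes.

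The members also differed in which of the high livers led. Fos, Fosb, Jun and Batf were highest in KO array 2, and Fosl2, Junb, Jund, Atf3 and Maff in KO array 1. For Fos the step between these arrays was large, from 5.05 in KO array 1 to 7.16 in KO array 2, and for Junb it ran the other way, from 7.73 to 6.76. For Fosb, Jund and Atf3 the pair lay close together. The KO SD was at least 1 in 3 members, Fos, Fosb and Junb, and in 0.266% of all genes.

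**Figure D4:**
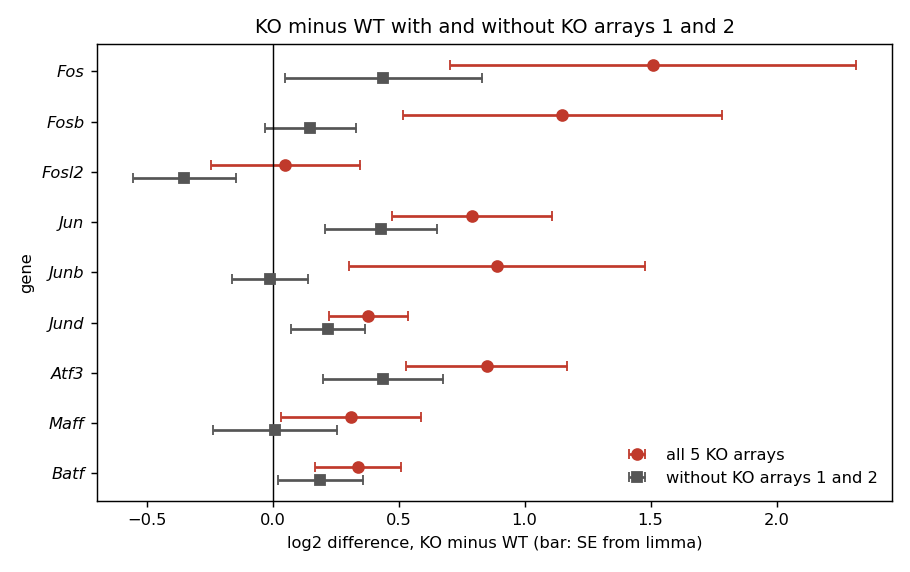
The log2 difference KO minus WT of each AP-1 gene with limma's standard error, over all 5 KO arrays (red circles) and without KO arrays 1 and 2 (grey squares). Fos moved from 1.51 to 0.44, Junb from 0.89 to -0.01, and Jund from 0.38 to 0.22.

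Relatives of the basic leucine zipper class, several of which can pair with AP-1 proteins, were taken as a further list. Of 26 measured genes (28 listed), 19 were higher and 7 lower in KO, with a median log2 difference of 0.14 that was 0.03 without KO arrays 1 and 2, and 0 passed limma's adjusted threshold. An unadjusted p under 0.05 was found for 1 gene, which was higher (2.75% of clusters), 3 genes were above WT in every KO array (1.96% of genes), and KO arrays 1 and 2 were the highest pair in 7 (5.48% of genes). Cebpb, a C/EBP factor of the acute phase and of liver regeneration, read 6.44, 6.73 and 6.59 in WT, and 7.79, 7.53, 6.95, 6.91 and 6.84 in KO. Its KO arrays were all above WT, with KO arrays 1 and 2 highest. The log2 difference was 0.62 (SE 0.226, limma adjusted p = 0.795), and 0.32 without those 2 arrays. Bach1, a repressor that pairs with small Maf proteins, was also above WT in every KO array and highest in those 2. Its KO arrays 3, 4 and 5, at 6.713, 6.705 and 6.688, exceeded the highest WT array (6.64) only slightly. The Bach1 difference was 0.32 (SE 0.182, limma adjusted p = 0.855), and 0.1 without KO arrays 1 and 2. Mafa, a large Maf factor, was not highest in those arrays, with a difference of 0.45 (SE 0.255), and of 0.73 without them.

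Upstream of AP-1, the MAP kinases and the serum response factor SRF with its ETS partners carry signals to the Fos promoter, and JNK kinases activate Jun protein. Transcripts of this group went both ways. Of 26 measured genes (31 listed), 11 were higher and 15 lower, with a median log2 difference of -0.02, and KO arrays 1 and 2 were the highest pair in 0 of them (5.48% of genes). None passed limma's adjusted threshold, and 2 had an unadjusted p under 0.05, 1 higher (2.75% of clusters) and 1 lower (3.32%). In 1 gene all KO arrays were above WT (1.96% of genes) and in 2 they were below WT (2.48%). Mapk7, the kinase ERK5, was higher in every KO array (log2 difference 0.50, SE 0.13, limma adjusted p = 0.795), at a dim level of 3.02 to 3.35 in WT. Mapk12, a p38 kinase, was lower in every KO array (-0.73, SE 0.238, limma adjusted p = 0.795), and Map2k6, an activator of p38, had a difference of 0.67 (SE 0.393). Srf, Elk1, a SRF partner, and Mapk8, the kinase JNK1, had differences of 0.23 (SE 0.202), -0.10 (SE 0.165) and -0.06 (SE 0.154).

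Among 9 measured genes of the turnover of AP-1 transcripts and proteins (10 listed), 6 were higher and 3 lower (median 0.08, and 0 with an unadjusted limma p under 0.05), and KO arrays 1 and 2 were the highest pair in 4 (5.48% of genes). Zfp36, which encodes tristetraprolin, a protein that speeds the decay of AU-rich transcripts, read 7.07, 7.71 and 7.48 in WT, and 8.53, 8.75, 7.53, 7.08 and 7.61 in KO. KO arrays 1 and 2 were high as for the early AP-1 genes, and the log2 difference of 0.48 (SE 0.353) was -0.01 without them. Its relative Zfp36l2 was high in the same arrays, with a difference of 0.32 (SE 0.289) and -0.04 without those arrays. Ubr4, a ubiquitin ligase, had a difference of -0.15 (SE 0.122).

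Of 21 measured genes known as AP-1 targets in other settings (24 listed), 14 were higher and 7 lower, with a median log2 difference of 0.24 and 0.12 without KO arrays 1 and 2. In this list 3 had an unadjusted limma p under 0.05, all higher (2.75% of clusters), and 0 passed the adjusted threshold, while 8 of the 21 had means under 3. The highest pair was KO arrays 1 and 2 in 4 of them (5.48% of genes), and every KO array was above WT in 2 (1.96%). Hmox1, heme oxygenase 1, read 6.48, 6.49 and 6.69 in WT, and 8.52, 7.85, 6.74, 7.17 and 6.997 in KO. Every KO array lay above every WT array, for a log2 difference of 0.90 (SE 0.347, limma adjusted p = 0.795), and of 0.41 without KO arrays 1 and 2. Vim, the intermediate filament vimentin, had a log2 difference of 0.73 (SE 0.236), and of 0.64 without those arrays, and Cd44, a hyaluronan receptor, 0.42 (SE 0.174) and 0.35.

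Other early response genes were examined beside the AP-1 genes. Of 17 early factors of the EGR, NR4A and KLF families and their like, 15 were higher and 2 lower in KO (median log2 difference 0.43, and 0.06 without KO arrays 1 and 2), and KO arrays 1 and 2 were the highest pair in 11 (5.48% of genes). Of 16 MAP kinase phosphatases and ERK feedback inhibitors, 12 were higher and 4 lower (median 0.11, and -0.04 without those arrays), and the pair was highest in 7. In each list 0 passed limma's adjusted threshold and 1 had an unadjusted p under 0.05 with a higher KO mean (2.75% of clusters). Egr1, a zinc finger early factor, read 4.92, 5.06 and 4.94 in WT, and 8.002, 7.499, 4.81, 4.14 and 4.01 in KO. It was high in KO arrays 1 and 2 and below every WT array in the other 3, for a log2 difference of 0.72 (SE 0.87) that was -0.66 without those 2 arrays. Dusp1, which dephosphorylates p38 and JNK, read 6.72, 6.84 and 6.85 in WT, and 8.59, 9.16, 7.33, 7.19 and 6.99 in KO. All KO arrays lay above WT, for a log2 difference of 1.05 (SE 0.449, limma adjusted p = 0.812), and of 0.37 without KO arrays 1 and 2.

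Further genes of these 2 lists with the smallest p were Klf4, with a log2 difference of 0.45 (SE 0.168), Ier3 with 0.70 (SE 0.336) and Btg2 with 1.31 (SE 0.726) among the early factors. Among the phosphatases they were Dusp6 with 0.31 (SE 0.154) and Dusp5 with 0.49 (SE 0.313). Btg2, an antiproliferative factor, had values of 7.83 and 7.45 in KO arrays 1 and 2 against 4.38 to 4.98 in WT, and its difference was 0.18 without them. Ier3 and Dusp5 also had smaller differences without those arrays, at 0.2 and 0.14. Klf4 and Dusp6 were not of this kind, since their differences were 0.52 and 0.37 without those arrays.

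The genes whose profile over the 8 arrays was most like that of Fos, Jun and Atf3 were found by the root mean square distance between profiles centred on their own means, among genes with a mean of at least 5. For Fos, whose own spread about its mean was 1.45 by the same measure, they were Dusp1 (distance 0.727), Btg2 (0.77), Asns, asparagine synthetase (0.799), Mmd2 (0.847) and Plk3, a polo-like kinase (0.876), of 7478 genes compared. Among the members bright enough to be ranked, Junb came at place 14, Atf3 at 21, Jun at 27, Fosl2 at 86 and Jund at 242. For Jun, with a spread of 0.603, they were Adgrf1 (0.216), the mitochondrial carrier Slc25a25 (0.22), Map3k13 (0.266), Phlda1 (0.272) and Cib3 (0.273), of 7477 compared. Jund came at place 57, Atf3 at 121 and Fosl2 at 1391, whereas Junb came at place 6323, farther from Jun (0.734) than the spread of Jun itself. The distance also counts the size of changes, and the KO SD was 1.28 for Junb and 0.602 for Jun. For Atf3, with a spread of 0.624, they were Nfkbia, the inhibitor of NF-kappaB (0.234), Vcam1 (0.235), the co-chaperone Dnajb1 (0.244), Skil (0.254) and Irf2bp2 (0.264). No member bright enough to be ranked was among the 5 nearest genes of Fos, Jun or Atf3. Fos, Fosb, Maff and Batf had means under 5, so they could not appear in these rankings. The absence of members from the nearest genes of Fos therefore holds for the brighter members only. It does not show whether Fosb, Maff or Batf lies nearer to Fos than Dusp1 does.

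The livers' cell type markers were set beside these values. In bulk tissue, fewer cells of a type and less RNA per cell cannot be told apart. Of 8 hepatocyte markers 7 were measured, and their summed level (log2 of the sum of linear values) was 14.38 to 14.42 in WT and 14.28 to 14.46 in KO. The 10 macrophage markers summed to 9.47 to 9.95 in WT and 9.30 to 10.26 in KO, with 10.08 and 9.80 in KO arrays 1 and 2 and the highest value in KO array 3, and 6 of 10 were higher in KO. The 9 AP-1 members themselves summed to 9.10 to 9.35 in WT, to 10.27 and 10.50 in KO arrays 1 and 2 and to 9.57, 9.46 and 9.31 in the other KO arrays. Such sums follow mainly the clusters that read highest, among the members Jun and Jund (means 7.88 and 8.33). The 10 sinusoidal endothelial markers summed to 10.75 to 10.76 in WT and 10.67 to 10.87 in KO (3 higher). Among them Lyve1, a hyaluronan receptor of sinusoidal and lymphatic endothelium, was above WT in every KO array and highest in KO array 1 at 8.21, with a log2 difference of 0.65 (SE 0.164, limma adjusted p = 0.795) that was 0.53 without KO arrays 1 and 2. The 10 neutrophil markers, of which 9 had means under 3, summed to 5.65 to 5.88 in WT and 5.66 to 6.13 in KO (7 higher), with the highest value in KO array 1 and 5.73 in KO array 2.

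The 10 stellate cell markers summed to 10.36 to 10.47 in WT and 10.12 to 10.55 in KO (7 higher), with 10.38 and 10.12 in KO arrays 1 and 2. Some of them were high in the same livers as the AP-1 genes. Others were not, and Dcn read 9.441 and 9.009 in KO arrays 1 and 2, below every WT array (9.477 to 9.595). KO array 5 was below them too, at 9.416, while KO arrays 3 and 4 were above them, at 9.746 and 9.626. The highest pair was KO arrays 1 and 2 in 4 of the 10, the collagen genes Col1a1, Col1a2 and Col3a1 and the smooth muscle actin gene Acta2, where this was so in 5.48% of all genes. Acta2 read 4.82, 4.68 and 4.12 in WT, and 5.51, 5.61, 4.35, 4.74 and 4.96 in KO, and Col1a1 read 4.90 and 4.52 in KO arrays 1 and 2 against 4.10 to 4.45 in WT. Their log2 differences were 0.49 (SE 0.288) for Acta2, 0.22 (SE 0.192) for Col1a1, 0.24 (SE 0.23) for Col1a2 and 0.17 (SE 0.445) for Col3a1, and 0.14, 0.04, 0.05 and -0.32 without those arrays. Lrat, the retinol esterifying enzyme of stellate cells, was below WT in every KO array instead (-0.34, SE 0.136, limma adjusted p = 0.795). Its KO array 3, at 6.722, was barely below the lowest WT array, at 6.725. The pair was also highest in 2 of 7 hepatocyte markers (Ttr and Hnf4a), 1 of 10 macrophage markers (Adgre1, at 5.84 and 5.57 against 4.75 to 5.39 in WT), Lyve1 and Slc4a1, and in 0 of the cholangiocyte, neutrophil, T and NK cell and B cell markers. Like Adgre1, the macrophage markers Cd68, Csf1r and Marco were above every WT array in both KO arrays 1 and 2 (12.7% of all genes). Cd68 read 6.169 and 6.027 there (WT at most 5.839), Csf1r 7.177 and 7.112 (6.892) and Marco 6.009 and 5.355 (4.769). All of these were also above WT in KO array 3 and below every WT array in KO array 4. The remaining macrophage markers were not above WT in both KO arrays 1 and 2. These markers were chosen for mention after their values were seen.

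The remaining marker lists overlapped between the groups in their sums. The 5 measured cholangiocyte markers (7 listed) summed to 7.07 to 7.43 in WT and 6.76 to 7.59 in KO, with 2 of 5 higher and Krt7, Krt19 and Cftr at means under 3. The 10 measured T and NK cell markers (11 listed) summed to 6.06 to 6.39 and 6.29 to 6.46, with 6 of 10 higher, and the 6 measured B cell markers (7 listed) to 6.14 to 6.69 and 6.18 to 6.64, with 2 of 6 higher. Of 7 erythroid markers 1 was measured, Slc4a1, at 2.49 to 3.01 in WT and 2.81 to 3.26 in KO, so blood in the samples could not be read from this list. The part of other cell types in the AP-1 values was not tested.

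**Figure D5:**
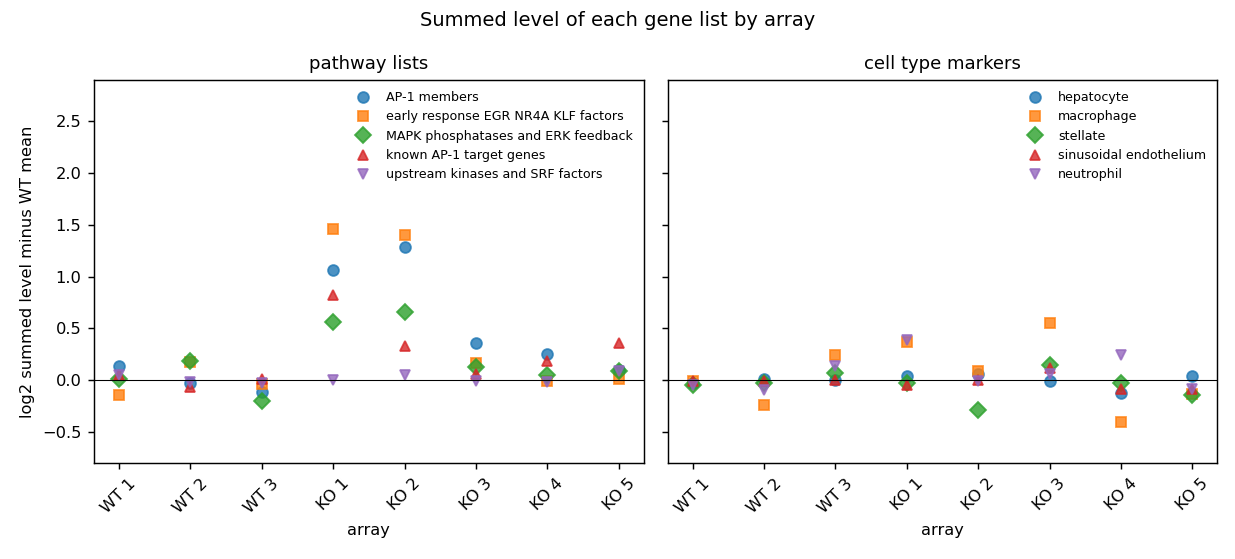
The log2 summed level of 5 pathway lists (left) and 5 cell type marker lists (right) on each array, minus its mean over the 3 WT arrays. AP-1 members, early factors and phosphatases are highest in KO arrays 1 and 2, the summed level of the upstream kinases stays near 0 in every array, and macrophage markers are highest in KO array 3.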

How the data were processed

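The authors deposited log2 expression values for 41345 transcript clusters on 8 arrays, used here as they stand. They were made with RMA and oligo, per the submitters' processing notes, while the design text names Expression Console. Settings, versions and genome build were not given in the sources used. RMA usually subtracts background, quantile-normalizes and summarises probes, which compresses differences of dim clusters. The log2 scale was read from the range of 0.409 to 13.27, and no scanner file, slide or scan date was used.

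Clusters were named through the platform annotation, where 23521 have 1 symbol, 1814 several and 16010 none. Of the 23521, 23328 matched RefSeq's GRCm38.p6 gene table, with 0 symbols changed. KO minus WT was fitted with limma 3.58.1 in R 4.3.3 (lmFit and eBayes, no trend, no covariates) over the 23521 clusters, two-sided, with Benjamini-Hochberg adjustment and a threshold of 0.05; the code was tested on simulated data. Single genes also had a two-sided exact permutation test. The number of arrays limits the precision, and as the labels do not list the animals, p-values measure only the spread between these samples.

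All 9 measured members were named. From each other list the 3 genes with the smallest p were named, with Srf, Elk1, Mapk8, Cebpb, Egr1 and Dusp1 for their known roles (Mapk3 was not measured by the rule), and the 5 genes most like Fos, Jun and Atf3. Members and lists were chosen with earlier results of these data known. Alternatives were each array left out, KO arrays 1 and 2 left out, other scalings, other empirical Bayes settings, other sets of clusters, the mean over a gene's clusters and the replicate number as a block.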

Additional observations from a re-analysis of the deposited data

How the results depend on the processing

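Of 140 values of single members under alternative settings, 136 kept their sign and 4 reversed, and 0 passed the adjusted threshold. The trend and robust settings, the fit of all clusters and the filter on means cannot move a difference, so signs were fixed there. The mean over a gene's clusters can move only the difference of Jund. The 4 that reversed were Fosl2 without KO array 1 (-0.13), without KO array 2 (-0.07) and without both (-0.35), and Junb without both (-0.01). With 1 array left out Fosl2 ranged from -0.13 to 0.25. Other differences moved by over 1.5 times without a single array, namely Fos (0.84) and Fosb (0.75) without KO array 2, Junb (0.43) without KO array 1, Batf (0.22) without WT array 1, and Maff without WT array 1 (0.47), WT array 3 (0.12), KO array 1 (0.16) or KO array 4 (0.48). The count of members past the threshold was 0 under every setting run, including the 5 members with a mean of at least 5. The median log2 difference of the members was 0.43 to 0.94 when 1 array was left out (lowest without KO array 1), and 0.19 without KO arrays 1 and 2. It was 0.79 with array medians set equal and 0.82 with quantile normalization again.

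The count of members whose groups do not overlap was 1 to 3 when 1 array was left out. It was 2 without WT array 1 (Jun and Jund), 3 without WT array 2 (Jund, Atf3 and Batf), 2 without KO array 4 (Jund and Atf3) and 2 without KO array 5 (Jun and Jund). It was 0 with the mean over a gene's clusters, since the dimmer Jund cluster overlaps. Over all genes such shares rise too when arrays are left out, to between 2.94% and 4.86% for KO above WT. The count of clusters past the threshold, 0 in the report, was 0 whichever single array was left out, 3 with trend and robust settings, 3 when all 41345 clusters were fitted, and 1 when clusters with means under 5 were dropped, leaving 7699.

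The replicate numbers gave no sign of a pairing, as same-numbered WT and KO arrays had correlations of their deviations of -0.027, 0.019 and -0.007. These values cover all single-symbol clusters together and do not show whether animals shared a litter or cage. The fit with the replicate number as a block, on arrays 1 to 3 of each group, gave 0 members and 1 cluster past the threshold and a median difference of 1.04, and 7 members lay above WT without overlap among those 6 arrays, where 6.88% of all genes did and 7.41% lay below. That fit leaves out KO arrays 4 and 5. In the dim genes Fos, Fosb, Maff and Batf, signal over background limits what the differences show.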
